A study of Mus musculus with 5 samples.

Results

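Complement is a set of plasma and cell surface proteins that marks microbes and damaged cells for removal. The genes described here are its components and regulators, 29 mouse genes chosen by name. Of the 55397 genes listed, 17105 had a mean of at least 10 normalised counts and were tested, among them 28 of the 29 complement genes. The exception was Cfd, for which no library held more than 8 reads.

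The libraries were made from liver tumours cut out of C57BL/6N females that had been injected through the tail vein at 8 weeks of age. Hydrodynamic injection brings plasmid DNA mainly into hepatocytes. All mice received Sleeping Beauty transposase, Akt and NICD, the intracellular domain of NOTCH1, both behind the EF1a promoter, which together give tumours with features of bile duct cancer (cholangiocarcinoma, CCA). The 3 Prox1 OE mice also received FLAG-tagged mouse Prox1 with GFP behind a doxycycline-inducible promoter, and the 2 Control mice the same vector with GFP only. By the labels the mice ate doxycycline diet (6.25%) from day 21, and overexpression ran from week 3 to 4. Tumours were collected a week later or at a humane endpoint, and the labels do not say which applied to which mouse. The labelled cells are transformed hepatocytes, but whole tumour pieces were lysed, so that RNA of other liver cells is included. In such bulk samples, more cells of a type and more RNA per cell cannot be told apart.

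Complement starts by the classical route, in which C1q binds antibodies or dying cells, by the lectin route, in which mannose-binding lectins bind sugars, or by the alternative route, which runs on its own at a low rate. All routes cleave C3 and then C5, and the terminal components C5b to C9 build a pore in the target membrane. Hepatocytes make most of the circulating components. C1q, by contrast, comes mainly from macrophages, including the Kupffer cells of the liver, and properdin from myeloid cells. By this knowledge 18 genes were placed in a hepatocyte-made class, 6 in a macrophage-made class, and 5 in neither. The receptors C3ar1 and C5ar1 were put with the macrophage genes because myeloid cells carry them.

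The libraries held 48740863 to 56629477 reads, and the totals of the groups overlapped. Prox1 itself stood at 4153 and 4664 normalised counts in Control 1 and 2 and at 48090, 11113 and 8231 in Prox1 OE 1, 2 and 3. All Prox1 OE libraries were above both Control libraries, Prox1 OE 1 by far the most. This gave a log2 fold change of 1.90 (SE 0.66), which missed the threshold with limma (adjusted p 0.0607) and DESeq2 (adjusted p 0.0647) and passed it with edgeR (adjusted p 0.0465). Without Prox1 OE 1 it was 1.12, with a limma adjusted p of 0.00551. Of the 18 hepatocyte markers 14 were higher and 0 lower (median log2 fold change 1.50), and of the 6 cholangiocyte markers 0 were higher and 5 lower (median -1.56). Krt19, a keratin of bile duct cells, reached 8442 and 10790 normalised counts in Control and 1643 to 1968 in Prox1 OE, so that these tumours carried bile duct markers beside the labelled hepatocyte identity.

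Of the 28 tested complement genes 21 were higher in Prox1 OE, 0 were lower and 7 did not pass the test (limma, adjusted p under 0.05, adjusted over all tested genes). Among all tested genes 17.1% were higher and 16.2% were lower. The median log2 fold change was 0.92 over the complement genes and -0.02 over all genes. Every Prox1 OE value exceeded both Control values in 25 of the 28, against 30.9% of all tested genes, and the groups were apart in either direction in 63.3% of all tested genes. Counts from recovered reads gave 21 higher complement genes with edgeR (18.0% of all genes) and 22 with DESeq2 (20.3% of all genes). Of the 21 genes, 11 were called under all 15 alternatives run (C1ra, C1s1, Hc, C6, C8g, C9, Masp2, Mbl2, C1qa, C1qb and C1qc) and the other 10 lost the call under at least 1. Leaving out Control 1 left 1 Control library, and calls were then lost among all tested genes as well as among the complement genes. With total counts in place of the size factors, 15 complement genes were higher and 1, Clu, was lower, while 1472 of all genes were higher and 6856 lower (2933 and 2769 with the size factors). That scaling moved the median over all genes to -0.45, and C2, C4b, Cfi, Masp1, Cfp and Cd59a lost the call under it with positive values.

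**Figure D1:**
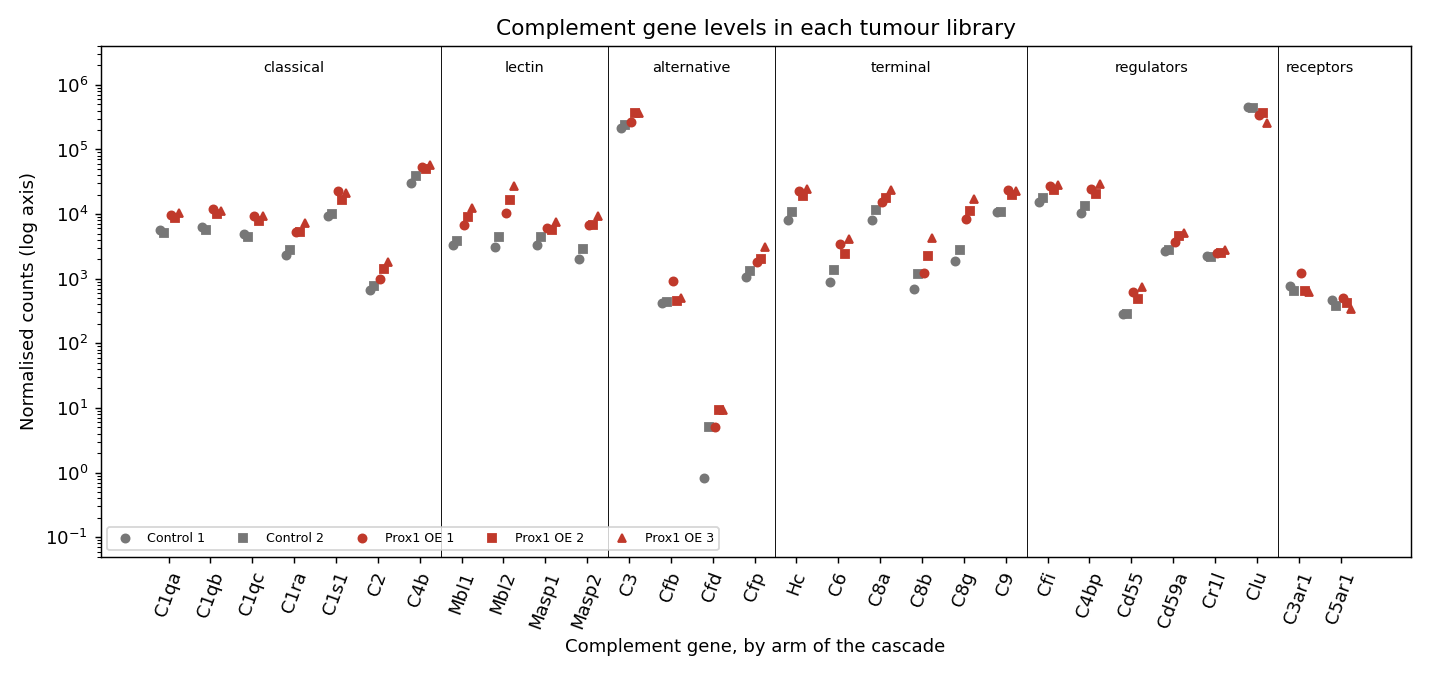
Normalised counts of all 29 complement genes in each library on a log axis, ordered by arm of the cascade. Grey marks the Control and red the Prox1 OE libraries; Clu and C3 lie far above the other genes, Cfd lies at 0.82 to 9.44, and most red points lie above both grey points of the same gene.

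By the textbook the start-site sequence of liver complement genes binds C/EBP and HNF4 factors, and that of macrophage genes binds PU.1. The RefSeq windows from 250 bases before to 50 bases after the start (GRCm38.p6) were available for 22 of the 29 genes and not for C1qa, C4b, Cfi, Cfb, Clu, C2 and Masp1. They were searched on both strands for the letters TTGCNNAA (C/EBP), CAAAGTCCA (HNF4 core), TTCCNGGAA (STAT) and GAGGAAGT (PU.1), and for the NF-kB consensus motif. The C/EBP letters were found in 4 of 13 hepatocyte-made genes (30.8%), against 12.2% of 27025 genes with a window, and in 0 of 5 macrophage-made genes. The matches began at position -132 in C9, -45 in C3, 16 in C1ra and -242 in C1s1, where 0 is the start. The PU.1 letters were found in 1 of 5 macrophage-made genes, C1qc at position -195, against 3.69% of all genes. The other motifs were in none of the 22 genes, and are in 0.555% (HNF4 core), 1.63% (NF-kB) and 1.35% (STAT) of all. A match describes letters only, and binding was not measured in these libraries. The windows are shown for C3 and C9, as liver genes with a match, for C1qc, as the macrophage gene with a match, and for Mbl2 and C8g, which had the highest log2 fold changes and no match. C8g has a further window (chr2:25500457-25500756), also without a match, which is not shown. Capitals mark the match.
C3, chr17:57228087-57228386, minus strand: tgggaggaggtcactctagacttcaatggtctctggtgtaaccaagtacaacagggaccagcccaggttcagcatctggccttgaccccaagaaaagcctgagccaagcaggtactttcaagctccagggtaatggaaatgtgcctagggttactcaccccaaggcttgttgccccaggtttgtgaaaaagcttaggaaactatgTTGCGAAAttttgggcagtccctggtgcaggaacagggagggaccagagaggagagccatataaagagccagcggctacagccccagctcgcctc
C9, chr15:6445096-6445395, plus strand: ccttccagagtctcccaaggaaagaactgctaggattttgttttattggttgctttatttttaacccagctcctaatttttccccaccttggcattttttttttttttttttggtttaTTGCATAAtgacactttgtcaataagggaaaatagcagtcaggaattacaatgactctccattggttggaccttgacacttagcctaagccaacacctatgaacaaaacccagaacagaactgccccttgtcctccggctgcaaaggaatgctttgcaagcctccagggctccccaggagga
C1qc, chr4:136892865-136893164, minus strand: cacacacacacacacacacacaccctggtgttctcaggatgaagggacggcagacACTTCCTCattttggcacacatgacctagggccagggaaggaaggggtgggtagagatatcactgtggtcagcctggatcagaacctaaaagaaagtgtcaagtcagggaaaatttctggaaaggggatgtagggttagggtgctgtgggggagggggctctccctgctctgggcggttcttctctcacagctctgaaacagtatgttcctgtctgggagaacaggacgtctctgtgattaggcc
Mbl2, chr19:30232678-30232977, plus strand: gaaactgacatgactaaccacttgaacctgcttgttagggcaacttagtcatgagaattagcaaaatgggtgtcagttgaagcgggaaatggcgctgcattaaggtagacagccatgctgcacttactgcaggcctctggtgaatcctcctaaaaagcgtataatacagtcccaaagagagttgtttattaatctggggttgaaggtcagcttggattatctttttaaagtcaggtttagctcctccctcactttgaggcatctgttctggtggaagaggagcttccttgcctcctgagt
C8g, chr2:25501670-25501969, minus strand: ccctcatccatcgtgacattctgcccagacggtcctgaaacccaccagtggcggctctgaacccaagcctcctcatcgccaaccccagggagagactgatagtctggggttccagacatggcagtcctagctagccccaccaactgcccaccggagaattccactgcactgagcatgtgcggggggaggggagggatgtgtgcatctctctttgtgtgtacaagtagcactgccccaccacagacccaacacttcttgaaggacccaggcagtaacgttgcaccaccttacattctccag

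In the classical arm all 7 genes were higher in Prox1 OE, with log2 fold changes of 0.64 to 1.20 and a median of 0.91. Among all tested genes the share higher was 17.1% and the median -0.02. C1qa, C1qb and C1qc encode the chains of C1q and lie side by side on chromosome 4 (mm10, C1qa at chr4:136895917-136898803). C1qa stood at 5748 and 5116 normalised counts in Control and at 9695, 8571 and 10332 in Prox1 OE. C1qb stood at 6296 and 5730 in Control and at 12099, 9883 and 11152 in Prox1 OE. C1qc stood at 4965 and 4430 in Control and at 9499, 7760 and 9291 in Prox1 OE. The groups were apart for each chain, and Control 1 was slightly above Control 2 in all 3. The log2 fold changes were 0.81 (SE 0.13) for C1qa, 0.87 (SE 0.13) for C1qb and 0.91 (SE 0.13) for C1qc, with limma adjusted p of 0.00468, 0.00387 and 0.00376.

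C1ra and C1s1 encode the proteases C1r and C1s that C1q activates. C1ra (chr6:124512405-124523443) stood at 2324 and 2814 normalised counts in Control and at 5354, 5306 and 7194 in Prox1 OE. C1s1 (chr6:124530345-124542359) stood at 9206 and 10020 in Control and at 22910, 16552 and 21482 in Prox1 OE. The lowest Prox1 OE value was well above the highest Control value in both genes. C1ra and C1s1 had log2 fold changes of 1.20 (SE 0.17, limma adjusted p 0.00334) and 1.07 (SE 0.17, limma adjusted p 0.00438).

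C4b and C2 supply the parts of the C3-cleaving enzyme of the classical and lectin routes. C4b (chr17:34728380-34743882) stood at 30498 and 39273 normalised counts in Control and at 53863, 50403 and 58162 in Prox1 OE. C2 (chr17:34862604-34898265) stood at 677 and 782 in Control and at 988, 1409 and 1836 in Prox1 OE. Both were apart between the groups, but the Prox1 OE values of C2 spread widely. The log2 fold changes were 0.64 (SE 0.18, limma adjusted p 0.0279) for C4b and 0.91 (SE 0.25, limma adjusted p 0.0275) for C2. The call of C4b was lost without Control 1 (0.303), Control 2 (0.0744), Prox1 OE 2 (0.0534) or Prox1 OE 3 (0.0623) and with a block for the replicate number (limma adjusted p 0.0519), and that of C2 without Control 1 (0.161), Control 2 (0.0818) or Prox1 OE 2 (0.0896), with no filter (0.0506) and without the mean-variance trend (limma adjusted p 0.0721). The near-identical copy C4a stood at 199 and 258 in Control and at 976, 766 and 853 in Prox1 OE, and how reads of the copies were shared out is not given in the sources used here.

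In the lectin arm all 4 genes were higher, against 17.1% of all tested genes, with the highest arm median, 1.50. Mbl1 and Mbl2 encode the mannose-binding lectins. Mbl1 (chr14:41151458-41159601) stood at 3281 and 3858 normalised counts in Control and at 6749, 8958 and 12230 in Prox1 OE. Mbl2 (chr19:30232942-30239687) stood at 3045 and 4391 in Control and at 10543, 16612 and 27479 in Prox1 OE. Both were highest in Prox1 OE 3 and lowest in Control 1, and no Prox1 OE value came near a Control value. Mbl1 had a log2 fold change of 1.35 (SE 0.23, limma adjusted p 0.00620), lost without Control 1 (limma adjusted p 0.0528), and Mbl2 one of 2.21 (SE 0.37, limma adjusted p 0.00533).

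Masp1 and Masp2 encode the proteases carried by these lectins, of which Masp2 cleaves C4 and C2. Masp2 (chr4:148602554-148615499) stood at 2000 and 2908 normalised counts in Control and at 6740, 6735 and 9445 in Prox1 OE. Masp1 (chr16:23449417-23520815) stood at 3312 and 4396 in Control and at 6016, 5684 and 7475 in Prox1 OE. Both separated the groups, Masp2 by the wider gap. Masp2 and Masp1 had log2 fold changes of 1.64 (SE 0.21, limma adjusted p 0.00283) and 0.73 (SE 0.17, limma adjusted p 0.0168), the latter lost without Control 1 (0.160) and without the trend (limma adjusted p 0.0531). Masp2 shares 54.9% of its exon bases with the opposite strand of Tardbp (mean 7649 normalised counts). Libraries kept the strand, but whether counting used it is not given in the sources used here.

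In the alternative arm 1 of 3 tested genes was higher, against 17.1% of all tested genes. C3 (chr17:57203970-57228136), the protein on which all routes meet, stood at 215925 and 237185 normalised counts in Control and at 269143, 372881 and 364806 in Prox1 OE. Its values did not overlap, but Prox1 OE 1 lay nearer to Control than to the other Prox1 OE libraries. The log2 fold change of 0.55 (SE 0.29) did not pass the limma test (adjusted p 0.179), nor that of edgeR (adjusted p 0.0794), but passed with DESeq2 (adjusted p 0.00903). Cfp (chrX:20925454-20931555) encodes properdin, which stabilises the alternative C3-cleaving enzyme. It stood at 1077 and 1295 in Control and at 1823, 1986 and 3104 in Prox1 OE, with a log2 fold change of 0.92 (SE 0.23, limma adjusted p 0.0213). That call was lost without Control 1 (0.143), Control 2 (0.0593) or Prox1 OE 2 (0.0508) and without the trend (limma adjusted p 0.0624).

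Cfb (chr17:34856374-34862518), factor B, supplies the protease of the same enzyme. It stood at 420 and 432 normalised counts in Control and at 928, 450 and 500 in Prox1 OE. Prox1 OE 1 alone was far above Control. Over all libraries Cfb had a log2 fold change of 0.48 (SE 0.30, limma adjusted p 0.254), and of 0.15 without Prox1 OE 1 (limma adjusted p 0.383). Cfb and C2 share 79.5% and 42.8% of their exon bases with the same-strand readthrough gene model Gm20547, which was listed at 0. Cfd, factor D, which activates factor B and is best known from fat cells, had 1 and 6 reads in Control and 5, 8 and 8 in Prox1 OE, and was not tested. Of the defining fat cell markers Adipoq, Plin1, Lep and Retn, none exceeded 4.09 normalised counts in any library. The other 2 genes of that list, which are not limited to fat cells, were abundant, Cidec at 2878 to 9575 and Fabp4 at 3137 to 5147 normalised counts.

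In the terminal arm 5 of 6 genes were higher, against 17.1% of all tested genes. The arm median was 1.29, against -0.02 over all tested genes. Hc (chr2:34983331-35061438) encodes C5, which starts the pore. It stood at 8171 and 10619 normalised counts in Control and at 23020, 18799 and 24479 in Prox1 OE. C6 (chr15:4727175-4814967), which joins C5b, stood at 897 and 1362 in Control and at 3392, 2437 and 4135 in Prox1 OE. C9 (chr15:6445327-6498751), which forms the ring of the pore, stood at 10830 and 10780 in Control and at 23484, 19394 and 22966 in Prox1 OE. None of the 3 overlapped between groups, and in each Prox1 OE 2 was the lowest of its group. The log2 fold changes were 1.24 (SE 0.17, limma adjusted p 0.00332) for Hc, 1.55 (SE 0.25, limma adjusted p 0.00509) for C6 and 1.02 (SE 0.14, limma adjusted p 0.00306) for C9.

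C8a, C8b and C8g encode the chains of C8, of which the gamma chain, a lipocalin, is bound to the alpha chain. C8a (chr4:104815679-104876398) stood at 8017 and 11402 normalised counts in Control and at 15435, 17758 and 23424 in Prox1 OE. C8b (chr4:104766317-104804548) stood at 689 and 1177 in Control and at 1236, 2268 and 4239 in Prox1 OE. C8g (chr2:25498651-25501719) stood at 1871 and 2767 in Control and at 8453, 10987 and 16927 in Prox1 OE. All 3 were highest in Prox1 OE 3, and C8b of Prox1 OE 1 was close to that of Control 2. On the log2 scale the fold change was 2.35 for C8g (SE 0.29, limma adjusted p 0.00275), the highest of the 28 genes, and 0.96 for C8a (SE 0.22, limma adjusted p 0.0156), the latter lost without Control 1 (0.143) or Prox1 OE 2 (limma adjusted p 0.0508). C8b had 1.34 (SE 0.47, limma adjusted p 0.0638), and 1.78 without Prox1 OE 1 (limma adjusted p 0.0135). With a block for the replicate number (Prox1 OE 3 left out) it had 0.89 (limma adjusted p 0.00199). On the same libraries with no block the value was also 0.89 and did not pass (limma adjusted p 0.108). C7, named after its values were seen because it is the remaining part of the pore, stood at 4.93 and 4.24 in Control and at 4.63 to 7.08 in Prox1 OE, under the level tested.

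**Figure D2:**
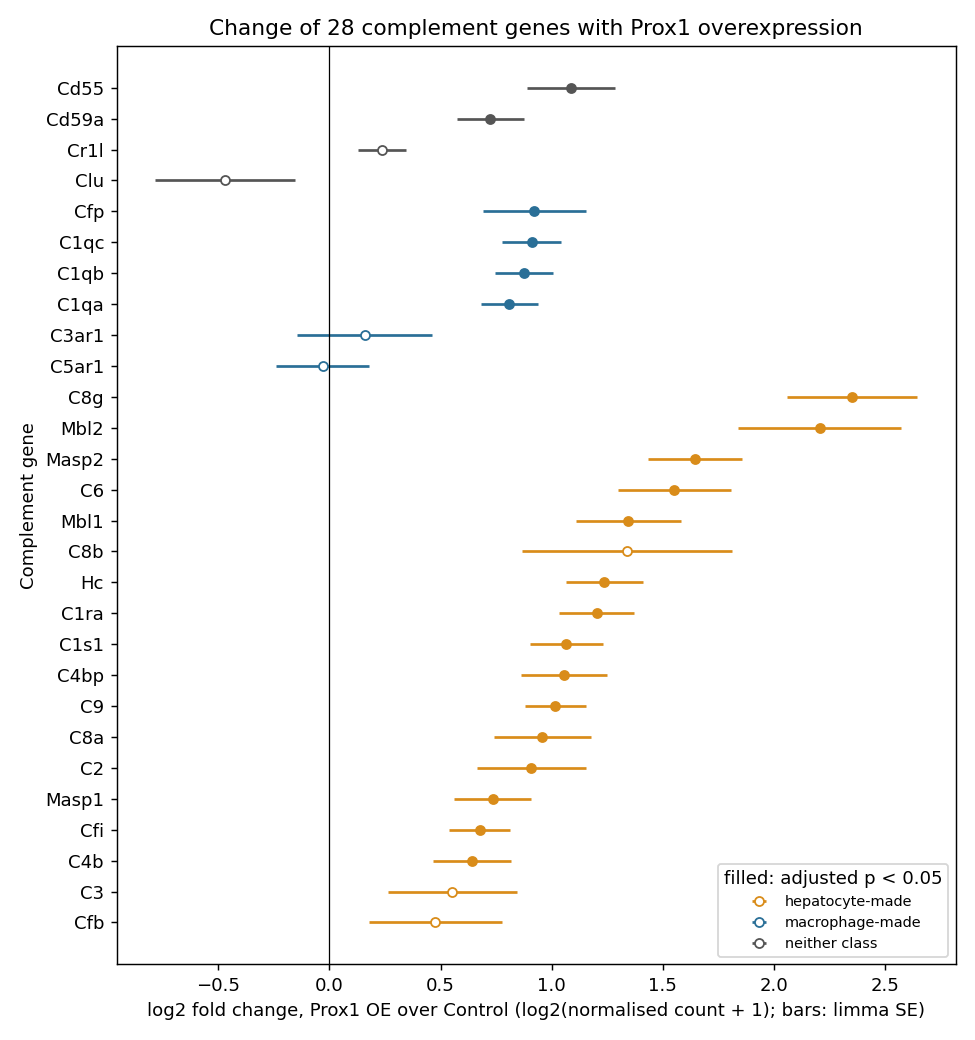
Log2 fold change of Prox1 OE over Control for the 28 tested complement genes, with the limma SE as bars and filled points for adjusted p under 0.05. Orange marks hepatocyte-made, blue macrophage-made and grey other genes; C8g at 2.35 and Mbl2 at 2.21 are farthest right, and Clu at -0.47 and C5ar1 at -0.03 are left of 0.

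Of the 6 regulators 4 were higher, and of the 2 receptors 0, against 17.1% of all tested genes. Cfi (chr3:129835884-129875332), factor I, the plasma protease that cuts C3b and C4b, stood at 15338 and 17440 normalised counts in Control and at 26739, 23970 and 27808 in Prox1 OE. C4bp (chr1:130634773-130661632), its cofactor for C4b, stood at 10270 and 13440 in Control and at 24179, 20548 and 29305 in Prox1 OE. The groups were apart for both plasma regulators. Cfi and C4bp had log2 fold changes of 0.68 (SE 0.14, limma adjusted p 0.0109) and 1.06 (SE 0.19, limma adjusted p 0.00715). Without Control 1 both lost the call (limma adjusted p 0.143 and 0.0803), as did Cfi without Control 2 (limma adjusted p 0.0588).

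Cd55, which takes C3-cleaving enzymes apart on the cell surface, stood at 289 and 286 normalised counts in Control and at 622, 493 and 746 in Prox1 OE. Cd59a, which keeps C9 from closing the pore, stood at 2648 and 2747 in Control and at 3764, 4533 and 5181 in Prox1 OE. The Control libraries were nearly equal for each and every Prox1 OE library was above them. Cd55 and Cd59a had log2 fold changes of 1.09 (SE 0.20, limma adjusted p 0.00719) and 0.72 (SE 0.15, limma adjusted p 0.0110). Without Control 1 the limma adjusted p was 0.0572 for Cd55 and 0.0920 for Cd59a, and without Control 2 it was 0.0625 for Cd59a. The close copy Cd59b stood at 138 and 101 in Control and at 358, 270 and 387 in Prox1 OE.

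Cr1l, which encodes the rodent regulator Crry, stood at 2235 and 2149 normalised counts in Control and at 2484, 2529 and 2737 in Prox1 OE. The groups did not overlap but were close, with a log2 fold change of 0.24 (SE 0.11, limma adjusted p 0.134), which turned to -0.20 when total counts were used for scaling. Clu (chr14:65968483-65981547) encodes clusterin, a secreted chaperone that also binds the forming pore. It stood at 446669 and 431221 in Control and at 340736, 366450 and 254033 in Prox1 OE. All Prox1 OE libraries were below Control, a direction seen in none of the other 28 genes with groups apart. The log2 fold change of -0.47 (SE 0.31) did not pass the limma test (adjusted p 0.281) nor that of edgeR (adjusted p 0.167) or DESeq2 (adjusted p 0.0501), and was -0.90 with total counts for scaling (limma adjusted p 0.0186).

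The receptors for the fragments C3a and C5a showed no such separation. C3ar1 stood at 784 and 637 normalised counts in Control and at 1242, 644 and 613 in Prox1 OE. C5ar1 stood at 471 and 376 in Control and at 496, 420 and 336 in Prox1 OE. The groups overlapped for both, and C3ar1 was high in Prox1 OE 1 only. The log2 fold changes were 0.16 (SE 0.30, limma adjusted p 0.715) and -0.03 (SE 0.21, limma adjusted p 0.924). Without Prox1 OE 1 that of C3ar1 was -0.17, with total counts for scaling it was -0.27, and that of C5ar1 was 0.13 without Control 1, 0.12 without Prox1 OE 3 and -0.46 with total counts for scaling (limma adjusted p 0.166).

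Partners of a complex were compared by the ratio of their levels per kb of exon, in each library and without a test. C1qb over C1qa lay between 1.03 and 1.19 in all 5 libraries, and C1s1 over C1ra between 2.84 and 4.08, with the groups overlapping. C1qc over C1qa was 0.47 in both Control libraries and 0.53, 0.49 and 0.48 in Prox1 OE. C8g over C8a was 0.57 and 0.59 in Control and 1.33, 1.51 and 1.76 in Prox1 OE. Masp2 over Masp1 was 1.80 and 1.97 in Control and 3.33, 3.52 and 3.76 in Prox1 OE. C8a over C8b was 8.14 and 6.78 in Control and 8.74, 5.48 and 3.87 in Prox1 OE. The groups were apart for C8g over C8a and for Masp2 over Masp1 and overlapped for C8a over C8b, and the ratios of the C1q chains stayed within narrow ranges, with C1qc over C1qa slightly higher in every Prox1 OE library. Mbl2 over Mbl1 was 1.34 and 1.64 in Control and 2.25, 2.67 and 3.24 in Prox1 OE. Clu over C3 was 3.10 and 2.72 in Control and 1.89, 1.47 and 1.04 in Prox1 OE.

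**Figure D3:**
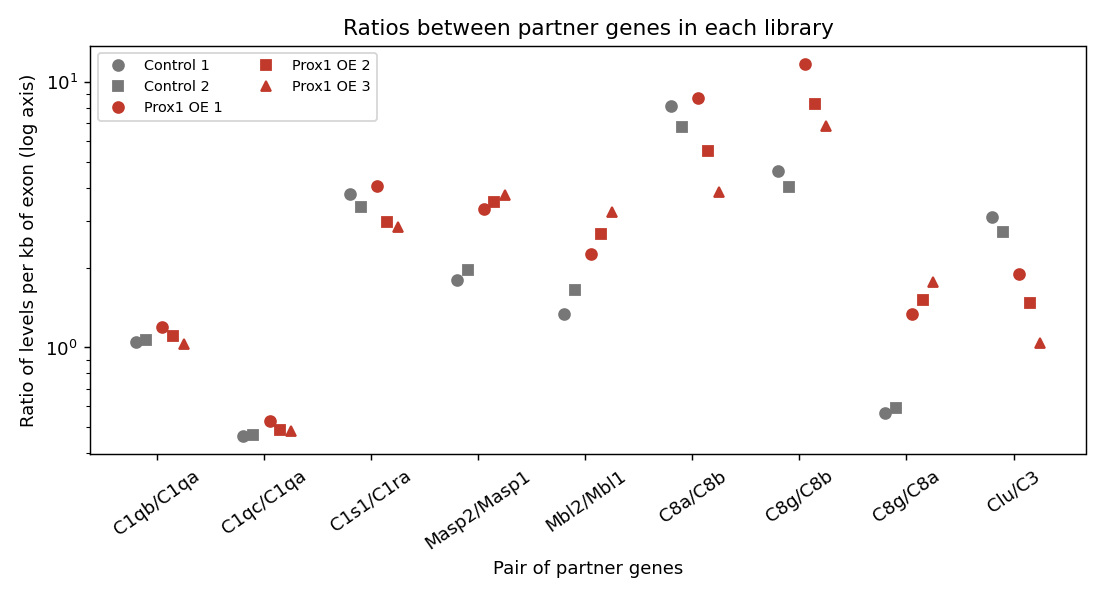
Ratio of levels per kb of exon between partner genes in each library, on a log axis, grey for Control and red for Prox1 OE. The red points lie above the grey ones for Masp2 over Masp1, Mbl2 over Mbl1 and C8g over C8a or C8b, lie just above them for C1qc over C1qa and below them for Clu over C3, and overlap for C1qb over C1qa, C1s1 over C1ra and C8a over C8b.

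Per kb of exon, Clu and C3 led in both groups, with mean levels of 127710 and 44051 normalised counts per kb in Control and 93223 and 65256 in Prox1 OE. Mbl2 moved from rank 8 of the 29 genes in Control (3414 per kb) to rank 3 in Prox1 OE (16723 per kb), and C8g from rank 14 (1553 per kb) to rank 9 (8119 per kb). Cfb, Cd55 and Cfd were at the low end in Control, with 151, 59.2 and 3.20 per kb. The 29 genes took 1.84% and 1.81% of all reads in Control and 1.55%, 1.75% and 1.47% in Prox1 OE, lower in every Prox1 OE library. A share of reads takes total counts as the scaling. In normalised counts the sum of the 29 genes went the other way. It was 797952 and 829037 in Control and 891637, 1004430 and 961426 in Prox1 OE, higher in every Prox1 OE library. Clu alone took 1.03% and 0.941% of reads in Control and 0.594%, 0.637% and 0.388% in Prox1 OE. Clu and C3 together held 83.0% and 80.6% of the complement reads in Control and 68.4%, 73.6% and 64.4% in Prox1 OE. The other 27 genes took 0.313% and 0.351% of reads in Control and 0.491%, 0.461% and 0.523% in Prox1 OE, higher in every Prox1 OE library.

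Set side by side, 15 of the 18 hepatocyte-made genes were higher in Prox1 OE, with a median log2 fold change of 1.06, and 4 of the 6 macrophage-made genes, with a median of 0.84. Of all tested genes 17.1% were higher, with a median of -0.02. Without Control 1 fewer hepatocyte-made genes were called, and fewer of all tested genes as well. The 3 hepatocyte-made genes that did not pass were C3, C8b and Cfb, and the 2 macrophage-made ones were the receptors. The mean log2 level of the hepatocyte-made class minus that of the macrophage-made class was 1.10 and 1.59 in Control and 1.60, 1.92 and 2.19 in Prox1 OE. The groups were apart only by a narrow margin, since Control 2 was next to Prox1 OE 1. The same difference between hepatocyte and macrophage markers was 5.15 and 5.78 in Control and 5.79, 6.50 and 6.71 in Prox1 OE. Of the hepatocyte-made genes 14 had their highest value in Prox1 OE 3, and of the macrophage-made genes 4 in Prox1 OE 1. Within the Prox1 OE group, Prox1 itself was lowest in Prox1 OE 3 (8231 normalised counts) and highest in Prox1 OE 1 (48090). A relation to the Prox1 level was not tested.

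Markers of the cell types were then compared, first as sums. The summed hepatocyte markers (18 genes, among them Alb, Ttr, Trf and Apoa1) stood at 1772110 and 2544170 normalised counts in Control and at 4967160, 5207190 and 6996100 in Prox1 OE. The summed macrophage markers stood at 39167 and 32252 in Control and at 66869, 43784 and 48588 in Prox1 OE. Of these 16 genes 6 were higher, 1, Cd14, was lower and 9 did not pass. Lyz2 was the most abundant of them, at 13636 and 9021 in Control and at 26966, 13777 and 15865 in Prox1 OE. The summed Kupffer cell markers (6 genes, 4 higher, led by Clec4f and Cd5l) stood at 4579 and 7416 in Control and at 13038, 13591 and 21688 in Prox1 OE. Each sum was higher in every Prox1 OE library, and the part of these cells in the complement values was not tested. Of 6 tested neutrophil markers 0 were higher and 0 lower, and Ly6g did not exceed 3.47 in any library. Of the 10 fibroblast and stellate cell markers 2 were higher and 4 lower, of the 6 endothelial ones 2 higher and 0 lower, and of 6 tested lymphocyte ones 3 higher and 0 lower. In the adipocyte list Cidec, which fatty hepatocytes also express, was higher and Fabp4 did not pass. Of the 10 liver regulators 3 were higher, 3 lower and 4 did not pass. Hnf4a (1.15) and Cebpa (0.66) were higher on the log2 scale, and Stat3 (-0.42), Il1r1 (-0.94) and Nfkbia (-0.45) were lower, while Cebpb (0.83), Cebpd (-0.26), Socs3 (-0.55) and Il6ra (0.56) did not pass. Of these, the genes other than Hnf4a, Cebpa and Cebpb were named after their values were seen.

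**Figure D4:**
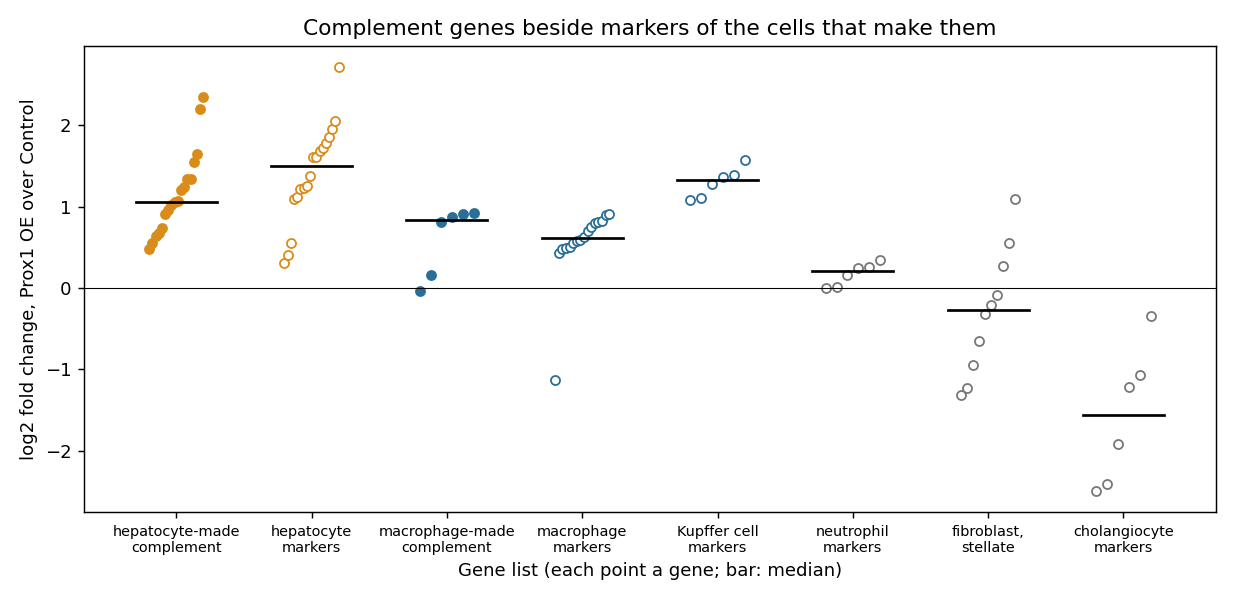
Log2 fold change of each tested gene in 8 lists, with the median as a bar. Hepatocyte-made complement (median 1.06) lies below the hepatocyte markers (1.50), macrophage-made complement (0.84) lies between the macrophage (0.61) and Kupffer cell markers (1.32), and cholangiocyte markers have a median of -1.56.

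When the mean log2 level of the hepatocyte markers was subtracted in each library, 2 of the 18 hepatocyte-made genes were higher and 4 lower, against 0.772% and 76.4% of all tested genes. C8g (0.93, limma adjusted p 0.0172) and Mbl2 (0.79, limma adjusted p 0.0360) exceeded the markers. C3 (-0.87, limma adjusted p 0.000334), C4b (-0.78, limma adjusted p 0.0122), Cfb (-0.94, limma adjusted p 0.0394) and Cfi (-0.75, limma adjusted p 0.0283) lagged behind them. Cfb did not pass with edgeR (-0.78, adjusted p 0.0927) or DESeq2 (-0.78, adjusted p 0.125), and had -1.44 without Prox1 OE 1. Of the 18 markers themselves 2 were higher than their mean and 3 lower, the latter being the fibrinogen genes Fga (-1.11), Fgb (-1.01) and Fgg (-0.87), named after their values were seen. The other 12 genes did not pass in either direction, with C1ra at -0.22 and C9 at -0.40. The 2 higher calls were absent without Control 1, Control 2, Prox1 OE 2 or Prox1 OE 3 and without the mean-variance trend (0 genes each time). Of the 4 lower calls 1 was left without Control 1, Prox1 OE 2 or Prox1 OE 3, and 0 without the trend. With a replicate block C3 lost its call (limma adjusted p 0.0644).

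Relative to the macrophage markers 0 of the 6 macrophage-made genes were higher and 1 was lower, against 5.50% and 44.2% of all tested genes. The log2 differences were 0.26 for C1qa, 0.32 for C1qb, 0.36 for C1qc and 0.37 for Cfp, with limma adjusted p of 0.250, 0.138, 0.101 and 0.276. C5ar1 was lower (-0.58, limma adjusted p 0.0493), and C3ar1 had -0.39 (limma adjusted p 0.208). Without Prox1 OE 1, C1qc and Cfp were higher than the macrophage markers (limma adjusted p 0.0328 and 0.0274), and C3ar1 was lower (-0.62, limma adjusted p 0.0139). The call of C5ar1 was lost without Control 1 (0.308), Control 2 (0.130) or Prox1 OE 3 (0.151), with a replicate block (0.111), with no filter (0.0628) and without the trend (limma adjusted p 0.0716).

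Beyond the 29 genes, 33 related genes were examined, of which 27 were tested, 19 were higher and 3 lower, with a median log2 fold change of 0.92, against 17.1% higher and 16.2% lower among all tested genes. The highest log2 fold changes were those of the C4 copy C4a (1.92, limma adjusted p 0.00209), the collectin Colec10 (1.66, limma adjusted p 0.0421, but edgeR adjusted p 0.0633), the factor H-related gene Cfhr3 (1.63, limma adjusted p 0.00281), Cd59b (1.49, limma adjusted p 0.00468) and the C1r-like protease C1rl (1.42, limma adjusted p 0.00242). Csmd1, a large membrane regulator, fell from 1040 and 1016 normalised counts in Control to 298, 184 and 141 in Prox1 OE (log2 fold change -2.37, limma adjusted p 0.00275). All Prox1 OE libraries were far below Control. Itgam, a chain of complement receptor CR3 on myeloid cells, was lower (-0.73, limma adjusted p 0.0228), as was Cd93 of endothelial and myeloid cells (-0.59, limma adjusted p 0.0195). The copies C1rb, C1s2 and Cd55b did not exceed 8.26 normalised counts in any library and were not tested. The higher count fell to 7 without Control 1, where that over all genes fell from 2933 to 891, and the lower count was 1 without Control 1, Control 2, Prox1 OE 2 or Prox1 OE 3.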

How the data were processed

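RNA-seq libraries of 5 tumours (2 Control, 3 Prox1 OE) were prepared by the authors with a dUTP protocol, sequenced as pairs of 100 base reads and, per the labels' processing notes, handled with STAR, DESeq2 and mm10. The counting tool is not given in the sources used here. The deposited table is a signal per gene, namely read counts after division by DESeq2 size factors (normalised counts). Whole reads were recovered for 100% of values, 1 read being worth 0.822 to 1.18 normalised counts. A floor of 3 reads is 2.46 to 3.54 normalised counts; totals and floors cover counting error only. No column was left unassigned (0 columns). A further deposited table holds the authors' own comparison (mean, log2 fold change, p-values) and was not used.

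Because the values were normalised, log2(normalised count + 1) was fitted with limma 3.58.1 in R 4.3.3 (lmFit and eBayes with trend, two-sided, no covariate), for genes with a mean of at least 10, with Benjamini-Hochberg adjustment over 17105 genes and a threshold of 0.05. Fold changes of low genes are understated on this scale. Nothing says whether the labelled replicates shared litters or injection days, and p-values measure the spread between these libraries. An exact permutation test of 2 against 3 cannot go below p = 0.1. edgeR 4.0.16 and DESeq2 1.42.0 were run on recovered reads as alternatives, beside TMM factors, total counts, other pseudocounts (0.1 and 10), other filters (none, 50), no trend, a replicate block and each library left out in turn. The fit was also run on simulated counts. Far fewer genes were changed there than were called here, and the scaling was not tested. Replicates were distinct libraries (chi-square per degree of freedom 39.6 to 126).

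Members, classes, marker lists, partner pairs and motifs were chosen with earlier results of these data known, so no list was given a test. Named were all 29 members, Prox1, the other complement genes with the 5 largest called changes in each direction, close copies of members, and the first 4 genes of a marker list; other names are marked or serve to define a list. Symbols, exon lengths (merged exons) and coordinates came from GENCODE for GRCm38, which matched 99.5% of identifiers. Start-site windows came from RefSeq (GRCm38.p6). Tumour collection time is not labelled per mouse, and its part was not tested. An item of the marker and motif lists is not reported here.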

Additional observations from a re-analysis of the deposited data

How the results depend on the processing

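With the total count as scaling, the median over all tested genes moved from -0.02 to -0.45; 1472 genes were then higher and 6856 lower (2933 and 2769 in the reported fit), 15 complement genes were higher and 1 (Clu) lower, the macrophage-made median was 0.41, and 12 other complement genes were higher. The share of higher calls thus depended on this scaling, and C3ar1 (-0.27) and Cr1l (-0.20) changed sign. Leaving out each library in turn gave 891 to 3729 genes higher and 620 to 3765 lower, 11 to 22 complement genes higher, 8 to 16 hepatocyte-made genes higher, 0 to 2 of these higher and 1 to 5 lower than the hepatocyte markers, 0 to 2 macrophage-made genes higher than the macrophage markers, and 7 to 18 other complement genes higher and 1 to 3 lower. A Control library left alone was assumed to vary like the Prox1 OE group. With a library left out C3ar1 ran from -0.17 to 0.34 and C5ar1 from -0.19 to 0.13 (0.12 without Prox1 OE 3). The log2 fold change of Prox1 ran from 1.12 to 2.39 with a library left out, and passed with edgeR (2.36) but not with DESeq2 (2.35). Relative to the hepatocyte markers, 2 genes were lower with no filter, and 0 were higher and 0 lower without the trend. The cause of these moves was not tested.

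Replicate numbers are shared between the groups, but no label ties them. The deviations of same-numbered libraries had correlations of 0.14 and 0.02 over 2 pairs. A fit with a replicate block, for which Prox1 OE 3 was left out, called 2646 genes higher and 2541 lower, and 21 complement genes higher. C4b lost the call and C8b gained it, Prox1 had 2.39 (limma adjusted p 0.00188), C5ar1 turned to 0.12, and 6 hepatocyte-made genes (C2, C4b, C8a, Cfb, Cfi and Masp1) were lower than the hepatocyte markers, without C3 (limma adjusted p 0.0644). Of 525 single-gene values under alternatives, 449 kept direction and side of the threshold, 66 lost and 4 gained the call, and 6 changed sign.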
